A study of Homo sapiens with 10 samples.

Results

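The addition of tamoxifen to estrogen was examined in HTB-182, an established line of squamous non-small cell lung carcinoma that the series title calls H520. Of the 10 arrays of the series, 4 made up the comparison. They measured HTB-182 cells given 1 µM estradiol, 1 µM estradiol with 10 µM tamoxifen, 1 µM of a conjugate of estradiol with bovine serum albumin (estradiol-BSA), and 1 µM estradiol-BSA with 10 µM tamoxifen. The arrays were chosen by line and treatment alone, and the 2 arrays of each estrogen form made a pair. All cells had first spent 4 h in medium with 10% charcoal-stripped serum, which is low in steroids, and were then exposed for 3 h. An HTB-182 array with 0.1% ethanol, the vehicle, is given beside the pairs as a reference level, and 4 A549 arrays of the same treatments served a test between lines. Every treatment was a single array with no replicate culture stated. No array with tamoxifen alone or albumin alone is among the groups used. The title of the array with estradiol and tamoxifen names tamoxifen alone while its source description names both compounds, and the description was followed. Free estradiol reaches intracellular and membrane receptors, the albumin conjugate was chosen by the study for receptors at the plasma membrane, and tamoxifen was included as an inhibitor.

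Tamoxifen is a selective estrogen receptor modulator. It competes with estradiol for the ligand pocket of the nuclear estrogen receptors and blocks or activates their target genes depending on the tissue. It is also known as an agonist of the G protein-coupled estrogen receptor and as a cationic amphiphilic drug that binds sterol-processing proteins and gathers in lysosomes. The design does not part these actions.

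Expression was read as MAS5 intensity on a linear scale. Differences, folds and fold thresholds are given on the log2(intensity + 16) scale, which understates the change of dim genes. A fold is thus smaller than the ratio of the intensities printed beside it. Each gene is represented by its brightest probe set, a group of probes to 1 stretch of a transcript, and genes with a mean intensity under 18.3 were left out, which kept 12829 of 19775 genes. The median intensity of the 5 HTB-182 arrays was 17.5 to 18.9 and their values correlated across genes at 0.996 to 0.997. SOX2, the transcription factor amplified in many squamous lung cancers, had an intensity of 3843 to 4377 over the 4 arrays, and the epithelial adhesion gene PERP one of 2897 to 3178. The squamous keratin and desmosome genes were low, with KRT5 at 18.7 to 24.1, KRT14 at 7.26 to 9.30 and DSG3 at 12.1 to 16.1, so these defining markers were at or near background. Of 14 neuroendocrine markers on the array 8 passed the filter on dim genes, and 3 had a mean of 100 or more. These were the granin gene CHGB at 1853 to 1971, UCHL1 at 1561 to 1579 and INSM1 at 281 to 395. NCAM1 at 76.0 to 111 and ENO2 at 59.7 to 82.2 were dimmer but above background. Others were at or near background, such as CHGA at 6.33 to 9.19, GRP at 6.64 to 7.09 and SYP at 20.7 to 30.2. The summed intensity of the list was 4036 to 4126 without and 4102 to 4267 with tamoxifen. Of 13 squamous markers on the array 6 passed the filter on dim genes, and the summed intensity of the list was 6950 to 7259 without and 7545 to 7636 with tamoxifen. Only 2 of these markers, SOX2 and PERP, had a mean of 100 or more, and they made up most of the sum. A dimmer SOX2 probe set went the other way with tamoxifen (log2 -0.84). Of 22 mesenchymal markers on the array 10 passed the filter on dim genes, and 5 had a mean of 100 or more. Among these were FN1 at 3614 to 3964, VIM at 859 to 875 and CDH2 at 764 to 854. Others were low, such as COL3A1 at 7.76 to 11.4. The summed intensity of that list was 6028 to 6247 without and 5956 to 6117 with tamoxifen. The summed markers of blood and endothelial cells were at 235 to 241 without and 249 to 274 with tamoxifen, and 0 of them reached 100.

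A measure of RNA quality moved with tamoxifen. The actin control probe sets of the array, which read the 3′ and the 5′ end of the ACTB message, gave a 3′ to 5′ ratio of 4.30 with vehicle, 3.74 with estradiol, 4.61 with estradiol and tamoxifen, 4.38 with estradiol-BSA and 6.13 with estradiol-BSA and tamoxifen. The ratio of the GAPDH controls was 1.53, 1.46, 1.53, 1.52 and 1.74 in the same order. A higher ratio means relatively less signal from the 5′ end of the message, and the array of estradiol-BSA with tamoxifen had the highest ratio of the line for both genes. The part of this difference in the results was not tested.

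**Figure D1:**
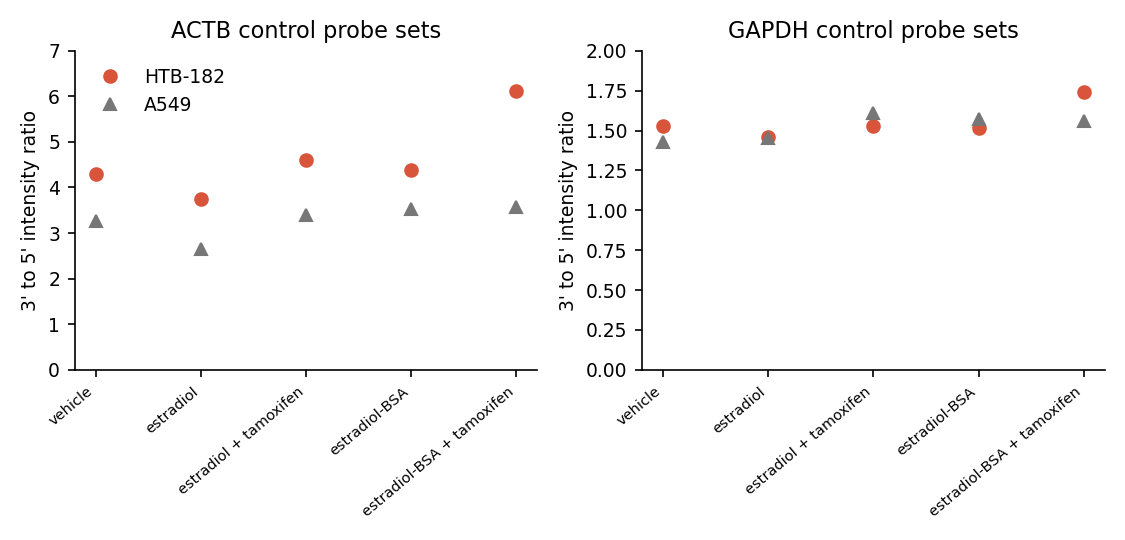
Ratio of the 3′ to the 5′ control probe set (vertical axis, starting at 0) for ACTB on the left and GAPDH on the right, for each treatment in HTB-182 (circles) and A549 (triangles), 1 array each. The HTB-182 array of estradiol-BSA with tamoxifen sits highest, at 6.13 for ACTB and 1.74 for GAPDH.

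Adding tamoxifen changed 4 genes (0.0312%) by limma with Benjamini-Hochberg adjustment at 0.05. WASF3 and P3H1 fell (2 of 12829 genes, 0.0156%), and ARTN and CCNG2 rose (also 0.0156%). WASF3 encodes WAVE3, which activates the Arp2/3 complex to build branched actin and is known for its role in tumour cell invasion. P3H1 encodes a prolyl 3-hydroxylase of the endoplasmic reticulum that modifies collagen chains. ARTN encodes artemin, a growth factor of the GDNF family that signals through RET, and CCNG2 encodes an atypical cyclin that restrains the cell cycle and is a known target of FOXO factors. The spread behind each p is the difference between the estrogen forms in the tamoxifen effect, with 1 residual degree of freedom moderated over all genes, so it is a spread between arrays that may be technical. In bulk RNA, fewer cells of a kind and less RNA per cell cannot be told apart.

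The 250 bases before the RefSeq transcription start of these genes are shown because they are the 4 genes that passed. They come from RefSeq on GRCh38.p14 and lie at chr13:26557433-26557682 on the plus strand for WASF3, chr1:42767029-42767278 on the minus strand for P3H1, chr1:43933551-43933800 on the plus strand for ARTN and chr4:77156957-77157206 on the plus strand for CCNG2. The table used holds 2 starts for WASF3, of which the first is shown. All 4 genes had an entry. Capitals mark the GC boxes (GGGCGG on either strand) and 1 E-box (CACGTG), and everything else is in lower case.
WASF3: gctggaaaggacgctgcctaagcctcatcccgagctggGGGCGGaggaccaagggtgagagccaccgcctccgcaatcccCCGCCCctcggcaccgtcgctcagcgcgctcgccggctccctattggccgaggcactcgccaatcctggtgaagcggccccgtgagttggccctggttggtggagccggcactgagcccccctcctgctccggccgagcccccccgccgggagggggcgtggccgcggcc
P3H1: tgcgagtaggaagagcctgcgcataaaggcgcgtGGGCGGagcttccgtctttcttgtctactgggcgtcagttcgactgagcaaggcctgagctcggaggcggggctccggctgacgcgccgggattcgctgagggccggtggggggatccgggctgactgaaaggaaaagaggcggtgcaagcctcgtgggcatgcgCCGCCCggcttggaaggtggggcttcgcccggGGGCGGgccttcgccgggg
ARTN: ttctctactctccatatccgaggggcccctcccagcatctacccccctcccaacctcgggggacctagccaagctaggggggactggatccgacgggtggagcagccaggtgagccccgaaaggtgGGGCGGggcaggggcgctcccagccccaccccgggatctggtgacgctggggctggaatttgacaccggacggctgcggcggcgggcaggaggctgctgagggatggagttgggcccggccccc
CCNG2: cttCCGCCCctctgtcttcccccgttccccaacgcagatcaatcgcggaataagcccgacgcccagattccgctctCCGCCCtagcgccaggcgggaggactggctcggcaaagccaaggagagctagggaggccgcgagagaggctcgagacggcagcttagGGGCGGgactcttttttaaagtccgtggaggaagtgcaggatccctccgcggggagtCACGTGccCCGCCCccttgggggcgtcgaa

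All 4 stretches are rich in G and C, at 74% for WASF3, 70.4% for ARTN, 68.8% for P3H1 and 65.6% for CCNG2. Each holds at least 1 GC box, a sequence known to bind SP family factors, with 4 in CCNG2, 3 in P3H1, 2 in WASF3 and 1 in ARTN. That sequence is in 42.3% of the 27305 promoter stretches of this length. CCNG2 alone holds an E-box, which begins 30 bases before the start and is in 6.49% of all stretches. The full estrogen response element (the half-site and its reverse complement with 3 bases between), its half-site (GGTCA, part of the full element), the AP-1 site (TGANTCA), the forkhead sites GTAAACA and AAAACAA and the sterol regulatory core TCACNCCAC were searched on both strands. They are in 0.0439%, 33.1%, 6.6%, 2.98%, 6.78% and 0.875% of all stretches, and none is in the 4 shown. These are matches of letters in a short window and say nothing on binding.

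WASF3 had intensities of 359 and, with tamoxifen, 125 in the estradiol pair, 405 and 121 in the estradiol-BSA pair, and 170 with vehicle. Both tamoxifen arrays thus lay below both arrays without it and below vehicle, and both estrogen forms alone lay above vehicle. The fall was 2.86-fold (log2 -1.51 ± 0.08, SE, 2 pairs; -1.41 on estradiol and -1.62 on estradiol-BSA; limma, adjusted p = 0.000204). P3H1 had intensities of 239 and then 95.4 in the estradiol pair, 242 and then 106 in the estradiol-BSA pair, and 154 with vehicle. It followed the same order of arrays, and its fall was 2.20-fold (log2 -1.14 ± 0.08, SE, 2 pairs; -1.19 and -1.09; limma, adjusted p = 0.00143). WASF3 and P3H1 are each read by 1 probe set, so no other probe set bears on them.

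ARTN had intensities of 314 with estradiol and 533 with tamoxifen added, 336 with estradiol-BSA and 583 with tamoxifen added, and 304 with vehicle. Here estrogen alone was close to vehicle and both tamoxifen arrays stood above all others. The rise was 1.68-fold (log2 0.75 ± 0.06, SE, 2 pairs; 0.74 and 0.77; limma, adjusted p = 0.00233). The other probe sets of ARTN did not share it, one going from 188 to 185 and from 216 to 190 and the other from 76.0 to 63.4 and from 105 to 104. The ARTN value therefore rests on 1 of 3 probe sets.

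CCNG2 had intensities of 167 and then 306 in the estradiol pair, 146 and then 264 in the estradiol-BSA pair, and 182 with vehicle. Estrogen alone lay somewhat below vehicle and both tamoxifen arrays above it. The rise was 1.74-fold (log2 0.80 ± 0.07, SE, 2 pairs; 0.81 and 0.79; limma, adjusted p = 0.00586). A second CCNG2 probe set went from 53.5 to 103 and from 61.8 to 87.4 (log2 0.59), and a pair of dim ones had log2 values of 0.15 and 0.16.

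ZBED1, which encodes a zinc finger factor that binds promoters of ribosomal protein genes, was the only other gene whose pairs both differed by 1.5-fold or more in one direction. It had intensities of 73.5 and then 40.4, and 78.7 and then 39.3, with 72.4 for vehicle. Both tamoxifen arrays were below the rest, at log2 -0.72 (SE 0.10), but the gene missed the threshold (limma, adjusted p = 0.0636). At 1.5-fold in both pairs, 2 genes were higher (0.0156%) and 3 lower (0.0234%), namely the 4 that passed and ZBED1.

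**Figure D2:**
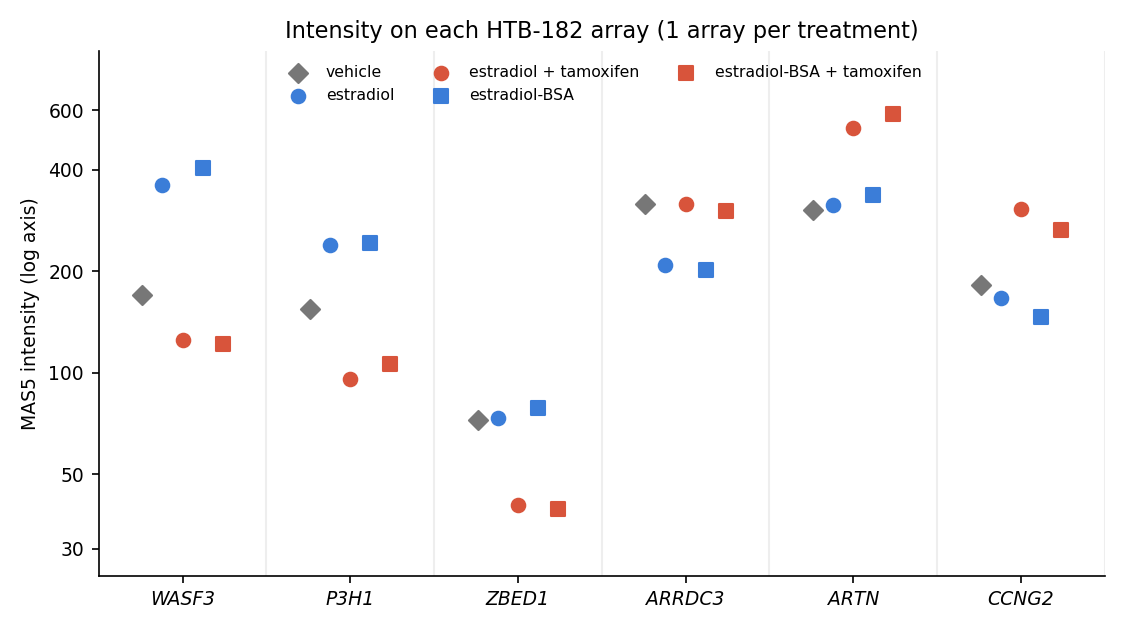
MAS5 intensity (vertical log axis) on each of the 5 HTB-182 arrays for the 4 genes that passed and for ZBED1 and ARRDC3, which did not; diamonds are vehicle, circles the estradiol pair, squares the estradiol-BSA pair, blue without and red with tamoxifen. WASF3 goes from 359 to 125 and from 405 to 121, while ARTN goes from 314 to 533 and from 336 to 583.

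How these 4 genes were called depended on the spread model and on the probe set. Without the intensity trend in the variance 0 genes passed by limma, although 1191 had an unadjusted p under 0.05, and the adjusted p was 0.0616 for WASF3, 0.0646 for P3H1, 0.197 for CCNG2 and 0.206 for ARTN. With the mean over all probe sets of a gene, ARTN (log2 0.18, adjusted p = 0.493) and CCNG2 (0.43, adjusted p = 0.352) no longer passed. With the vehicle array added to the arrays without tamoxifen and the estrogen form dropped from the model, WASF3 (adjusted p = 0.458) and P3H1 (0.0784) no longer passed. Dropping the form alone kept all 4 genes. In each fit that left out 1 array all 4 genes passed. The count was then 22 without the estradiol array, 23 without the estradiol-BSA array, 105 without estradiol with tamoxifen and 54 without estradiol-BSA with tamoxifen, the array with the highest 3′ to 5′ ratios.

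At an unadjusted p under 0.05, which 1302 genes (10.1%) had, tamoxifen went with 875 higher genes (6.82%) and 427 lower genes (3.33%). Over all genes the median effect was 0.02 on the log2 scale, and 37.05% of genes were higher and 20.03% lower in both pairs. Both tamoxifen arrays were above both arrays without it for 21.8% of genes and below both for 11.4%. Effects in the pairs, which share no array, correlated across genes at Pearson r = 0.16 (Spearman 0.17), and at 0.24 over the 7035 genes with a mean intensity of 100 or above. At 1.5-fold, 18 genes were higher (0.140%) and 20 lower (0.156%) with tamoxifen on estradiol, and 25 higher (0.195%) and 48 lower (0.374%) with tamoxifen on estradiol-BSA. The 2 higher genes in common are 11.1% and 8% of these, and the 3 lower genes 15% and 6.25%. The 95% interval of the tamoxifen effect had a median half-width of 1.15-fold. For 98.87% of genes it stayed inside 1.5-fold in both directions. Its width comes from the difference between the pairs of single arrays, moderated over all genes, so it holds no spread between replicate cultures. The log2 scale used also understates the change of dim genes. The share therefore does not bound the change in intensity of dim genes or the change across cultures.

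**Figure D3:**
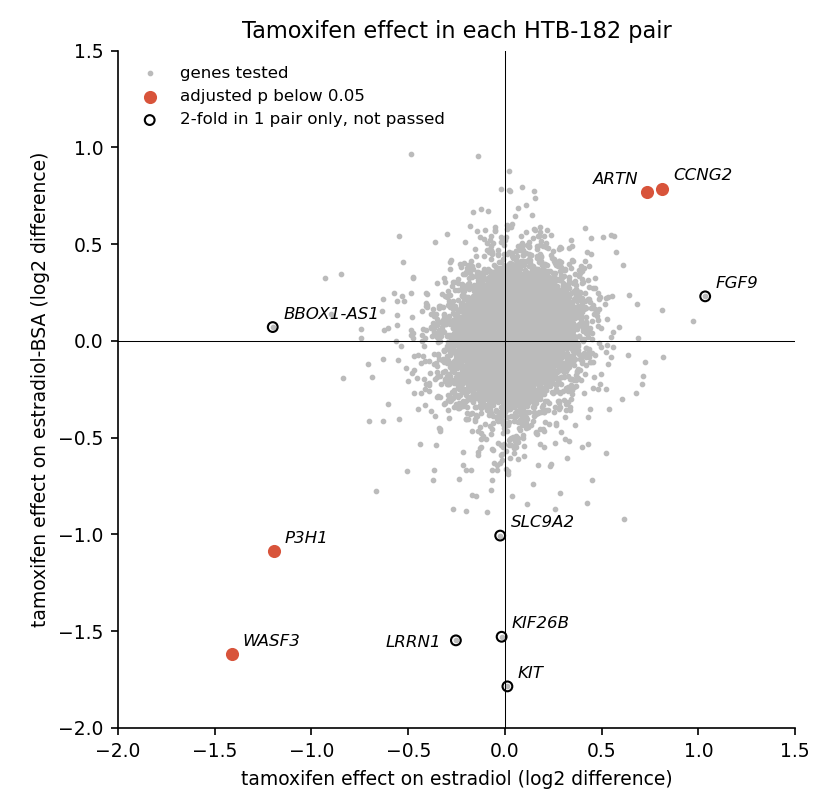
Each point is a tested gene, with its tamoxifen effect on estradiol on the horizontal axis and on estradiol-BSA on the vertical axis (log2 differences between single arrays). The 4 genes that passed lie near the diagonal (WASF3 at -1.41 and -1.62), while KIT, KIF26B, LRRN1 and SLC9A2 are low only on the vertical axis and BBOX1-AS1 and FGF9 move on the horizontal axis. The test favours genes near the diagonal, because its spread is the difference between the pairs.

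The vehicle array places these values. In HTB-182, 15 genes were at least 1.5-fold from vehicle the same way with both estrogen forms, 9 higher and 6 lower, and WASF3 alone among them passed for tamoxifen. Apart from the 4 genes that passed, the list members of largest change, the receptors and the WAVE and collagen families, the genes given from here on were named after their values were seen. IFIH1, which encodes the viral RNA sensor MDA5, was at 18.1 with vehicle, 67.0 and 54.4 with estradiol and estradiol-BSA, and 58.4 and 44.4 with tamoxifen added. Its 4 treated arrays all lay above vehicle, with or without tamoxifen. SOX13, a SOX family transcription factor gene, was at 242 with vehicle, 462 and 372 with the estrogens, and 463 and 334 with tamoxifen added. PKM, the pyruvate kinase gene, was at 849, then 432 and 546, then 414 and 570. VASN, encoding a membrane protein that binds TGF-beta, lay below vehicle with estrogen and closer to it with tamoxifen, at 44.3 with vehicle, 23.1 and 16.1 with the estrogens, and 39.6 and 30.5 with tamoxifen added (log2 0.52, limma adjusted p = 0.153). These sets against vehicle and the tamoxifen effect share the estrogen arrays, so a return toward vehicle is a description of levels. With tamoxifen in both pairs 14 genes were at least 1.5-fold from vehicle, 7 higher and 7 lower, and 4 of these genes (3 higher, 1 lower) were so on all 4 arrays. ARTN and ZBED1 were among those past 1.5-fold with tamoxifen and not with estrogen alone.

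With genes of a mean intensity of 100 or above, 57 of 7035 passed (0.81%), 31 higher and 26 lower. Of these, 53 missed the threshold over all 12829 genes. Among those 53 were BCL6, BTG1, CDKN1B, MSMO1, DUSP6, BAG3, HERPUD1 and DNAJB9, which belong to lists given below. The list counts below are from the fit over all 12829 genes. All 57 moved the same way in both pairs, but a gene whose pairs went opposite ways could not have passed. The spread is the difference between the pairs, so the shared direction is no separate sign that they agree. ARRDC3, an arrestin family gene that restrains beta-adrenergic signalling, was at 209 and then 316 in the estradiol pair, 202 and then 302 in the estradiol-BSA pair, and 316 with vehicle (log2 0.55, limma adjusted p = 0.0636 over all genes). Both estrogen arrays were thus below vehicle and both tamoxifen arrays close to it. PNRC1, a coregulator of nuclear receptors, was at 204 and then 319, and at 246 and then 328, with 273 for vehicle (0.50, adjusted p = 0.136). SLC38A2, encoding the amino acid transporter SNAT2, was at 2722 and then 3264, and at 2652 and then 3152, with 2905 for vehicle, and its 3 probe sets had log2 values of 0.25, 0.19 and 0.20. On the lower side, NIP7, a ribosome assembly gene, was at 1115 and then 881, and at 1235 and then 889, with 1141 for vehicle (-0.40, adjusted p = 0.0636), while its other probe set was at -0.02. TRIB2, a pseudokinase gene, was at 274 and then 182, and at 280 and then 208, with 267 for vehicle (-0.48, adjusted p = 0.136; its other probe set at -0.28). LYAR, a nucleolar protein gene, was at 1263 and then 1027, and at 1260 and then 1035, with 1088 for vehicle, so tamoxifen was below vehicle and estrogen above it. The methionine adenosyltransferase gene MAT2A was at 2073 and then 1749, and at 2113 and then 1790, with 1778 for vehicle, so estrogen was above vehicle and tamoxifen close to it.

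FOXO factors are held in the cytoplasm when the PI3K and AKT pathway is active and drive genes of cell cycle arrest and energy saving when it is not. Of 25 FOXO targets and growth factor withdrawal genes, 23 were tested, 1 passed (CCNG2, higher) and 0 passed as lower. At an unadjusted p under 0.05 there were 8 higher and 0 lower (6.82% and 3.33% of all genes). In both pairs 18 were higher and 1 lower (37.05% and 20.03% of all genes), and the list's median was 0.17 against 0.02 for all genes. BCL6, a transcriptional repressor, was at 207 and then 286, and at 305 and then 373, with 217 for vehicle (log2 0.36, limma adjusted p = 0.246; its other probe sets at 0.25 and 0.02). Its level with estradiol-BSA alone was above that with estradiol and tamoxifen, so the groups overlap. SESN1, encoding the stress protein sestrin 1, was at 44.8 and then 58.4, and at 47.9 and then 63.6, with 53.7 for vehicle (0.30, adjusted p = 0.394). CDKN1B, encoding the cell cycle inhibitor p27, was at 520 and then 648, and at 596 and then 703, with 583 for vehicle (0.27, adjusted p = 0.246). For SESN1 and CDKN1B both tamoxifen arrays lay above the other arrays. IRS2, encoding an insulin receptor adaptor, FOXO3 and the antiproliferative gene BTG1 had log2 values of 0.22, 0.19 and 0.20. BTG1's other probe sets had a mean of 0.19 for a dim one and -0.01 for a brighter one, whose pairs were at 0.10 and -0.13. The proapoptotic target BCL2L11 (-0.04), the DNA damage gene GADD45A (-0.03) and the pocket protein gene RBL2 (-0.06) were the other way or at 0. With quantile normalization the list's median was 0.15, with a pseudocount of 64 it was 0.10 and with the mean of probe sets 0.12.

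Tamoxifen binds proteins of sterol synthesis, whose genes are driven by SREBP factors when sterols are low. Of 25 sterol synthesis and uptake genes 19 were tested and 0 passed, with 5 higher and 1 lower at an unadjusted p under 0.05, 13 higher and 1 lower in both pairs, and a median of 0.08. Over all genes these shares were 6.82% and 3.33% at that p and 37.05% and 20.03% in both pairs, and the median was 0.02. MSMO1, a sterol demethylase gene, was at 854 and then 1041, and at 721 and then 966, with 776 for vehicle (log2 0.35, limma adjusted p = 0.136). Its tamoxifen arrays lay above the other 3. NSDHL and INSIG1, the latter a sterol-regulated brake on the pathway, both had log2 values of 0.20, and HMGCS1, of the first steps of the pathway, had 0.18. EBP, which encodes the sterol isomerase that tamoxifen is known to bind, was at 609 and then 541, and at 609 and then 553 (-0.15, adjusted p = 0.438). Of 31 tested lysosome and autophagy genes 0 passed, 9 were higher and 8 lower in both pairs, and the median was 0.01.

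ERK signalling induces its own brakes within hours. Of 18 tested ERK feedback genes 0 passed, 12 were higher and 1 lower in both pairs (37.05% and 20.03% of all genes), and the median was 0.11 against 0.02 for all genes. DUSP6, an ERK phosphatase gene, was at 1541 and then 1757, and at 1101 and then 1315, with 1597 for vehicle (log2 0.22, limma adjusted p = 0.246). The forms differed more than the tamoxifen pairs, so the groups overlap. ETV1, SPRY2 and SPRED1 had log2 values of 0.20, 0.18 and 0.17, and DUSP7 one of -0.21. Of 30 tested immediate early genes 0 passed, 15 were higher and 5 lower in both pairs, and the median was 0.08. CCN1, a matrix signalling gene, had the largest value (0.32, adjusted p = 0.393). EGR4 was also at 0.26 but dim, and its pairs went opposite ways, while ATF3 (0.26), JUND (0.24) and IER5 (0.23) were higher in both. ID1, an inhibitor of differentiation factors, was at 972 and then 758 in the estradiol pair and at 378 and then 337 in the estradiol-BSA pair, with 807 for vehicle (-0.25, adjusted p = 0.371). The level of ID1 differed more between the estrogen forms than with tamoxifen, and its value turned to 0.41 without the estradiol array and to 0.31 without the array of estradiol-BSA and tamoxifen.

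Heat shock and stress genes held no member that passed over all genes tested. At a mean intensity of 100 or above BAG3, HERPUD1 and DNAJB9 did pass. Probe sets shared by the heat shock genes HSPA1A and HSPA1B name several genes and were left out of the gene test. Among these, a brighter probe set had log2 0.42 (0.53 and 0.31 in the pairs, limma adjusted p = 0.0952 over all probe sets). A dimmer probe set had 0.37 (0.48 and 0.27, adjusted p = 0.204). Of 14 tested heat shock genes 0 passed, 8 were higher and 3 lower in both pairs (37.05% and 20.03% of all genes, here and below), and the median was 0.06, which turned to -0.0030 with the mean of probe sets. BAG3, a co-chaperone gene, was at 366 and then 511, and at 413 and then 503, with 420 for vehicle (log2 0.37, limma adjusted p = 0.204). DNAJB4 (0.37) and DNAJB1 (0.17), both encoding co-chaperones, were alike in the pairs, whereas the abundant chaperone genes HSPD1 (0.02) and HSP90AB1 (-0.01) had values near 0. A dimmer HSPD1 probe set went from 5160 to 4467 and from 4757 to 3445 (log2 -0.34), so the HSPD1 value depends on the probe set. Of 21 tested chaperone genes of the unfolded protein response 0 passed, 7 were higher and 7 lower in both pairs, and the median was -0.010. HERPUD1, of endoplasmic reticulum degradation, was at 786 and then 985, and at 715 and then 875, with 836 for vehicle (0.30, adjusted p = 0.146). DNAJB9, a co-chaperone of the lumen, had 0.37 with other probe sets at 0.20 and 0.19, while HSPA5, the main lumen chaperone, had 0.08. HSP90B1 was at 1152 and then 1107 in the estradiol pair, and at 1131 and then 726 in the estradiol-BSA pair. That low value is on the array with the ACTB ratio of 6.13, whose part was not tested. Of 24 tested genes of the integrated stress response 0 passed, with 11 higher and 3 lower in both pairs and a median of 0.04, led by CHAC1 (0.27) and ATF3.

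Among G1/S and replication genes 27 were tested and 0 passed. In both pairs 3 were higher and 14 lower, against 37.05% and 20.03% of all genes, and the median was -0.04. CDC25A, encoding a phosphatase that opens S phase, was at 131 and then 102, and at 138 and then 118, with 125 for vehicle (log2 -0.25, limma adjusted p = 0.418). The cyclin genes CCNE2 and CCNE1 had -0.17 and -0.16, while E2F1 had 0.19 and PCNA 0.04. Of 28 tested G2/M genes 0 passed and the median was 0.01. Of 20 tested p53 targets 0 passed, and CDKN1A, encoding the cell cycle inhibitor p21, had the largest value, at 33.2 and then 46.4, and at 37.7 and then 61.3, with 48.0 for vehicle (0.43, adjusted p = 0.303). The vehicle level of CDKN1A thus lay among those with tamoxifen. Of 22 tested apoptosis regulators 0 passed and the median was 0.04.

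**Figure D4:**
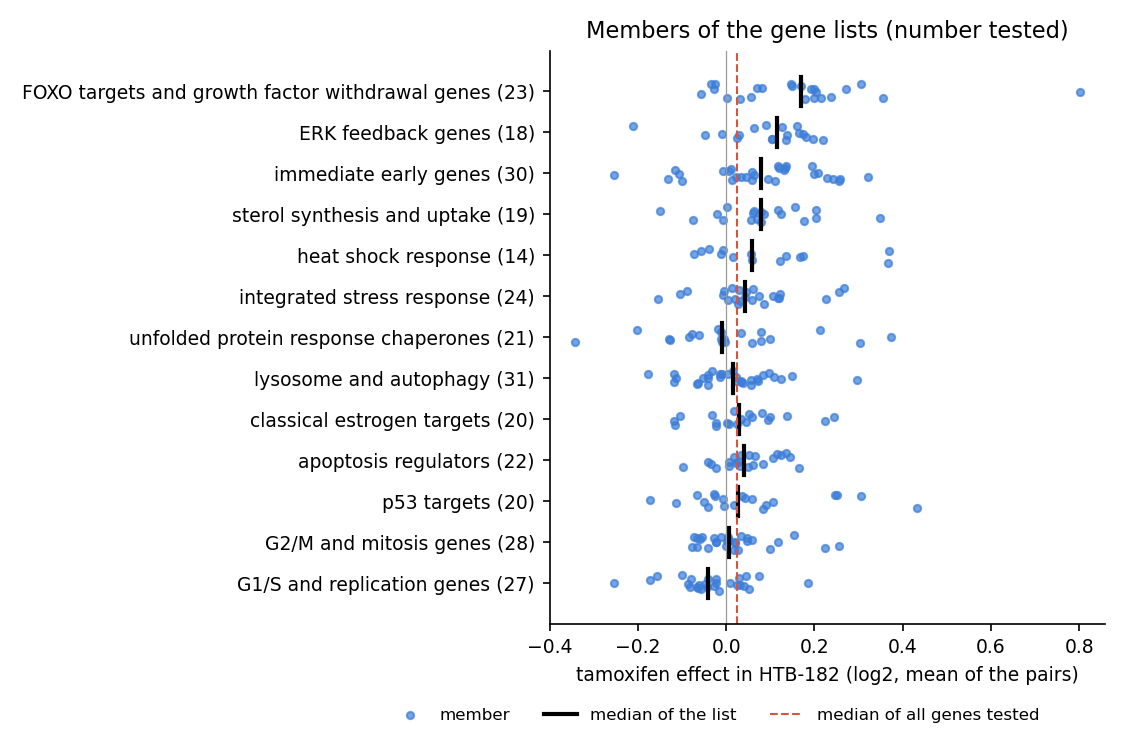
Tamoxifen effect in HTB-182 (log2, mean of the pairs, horizontal axis) for each tested member of 13 gene lists; black bars are list medians and the dashed line is the median of all genes tested, 0.02. FOXO targets have the highest median shown, 0.17, and G1/S genes the lowest, -0.04.

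The receptors that tamoxifen could act on were near background. ESR1, encoding estrogen receptor alpha, was at 18.5 and then 26.3, and at 17.5 and then 17.7 (log2 0.15, limma adjusted p = 0.639). ESR2, encoding estrogen receptor beta, was at 25.9 and then 27.9, and at 28.7 and then 29.7 (0.05), and GPER1, encoding the G protein-coupled receptor, at 17.3 and then 26.4, and at 29.8 and then 24.0 (0.07, turning to -0.15 without the estradiol array). PGR was under the filter. Intensities this close to the filter at 18.3 do not show whether the genes were expressed. Of 11 tested receptor and coregulator genes 0 passed and 8 were higher and 0 lower in both pairs (37.05% and 20.03% of all genes), with the coactivator gene NCOA2 at 0.17 and GATA3, which was dim, at 0.30. Of 20 tested classical estrogen targets 0 passed, 7 were higher and 4 lower in both pairs, and the median was 0.03. MYC, which estrogen induces in breast cells, was at 1016 and then 957, and at 1037 and then 935, with 933 for vehicle (-0.12, adjusted p = 0.477). CCND1, TPD52L1 and SIAH2 had values of 0.03, 0.02 and 0.0024.

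In the families of the genes that passed, no other member passed. Of 21 tested genes of the WAVE regulatory complex, the Arp2/3 complex and related factors, 1 passed, WASF3, and the others ran from -0.15 to 0.18 with a list median of 0.02. WASF2, which encodes the related WAVE2, was at 298 and then 324, and at 360 and then 351 (log2 0.04). The complex partners CYFIP1, NCKAP1, ABI1 and BRK1 had 0.02, 0.08, -0.07 and 0.09, and the Arp2/3 subunit gene ARPC2 had -0.15 (limma, adjusted p = 0.371). Of 17 tested genes of collagen hydroxylation and folding 1 passed, P3H1, with a list median of 0.01. Its partners in the 3-hydroxylation complex, CRTAP and PPIB, had 0.01 and 0.01, and its relatives P3H2 and P3H3 had 0.0023 and 0.24, the latter dim at 18.8 to 33.0. PLOD2, a lysyl hydroxylase gene, was at 692 and then 752, and at 718 and then 820 (0.15, limma adjusted p = 0.418), while its other probe set was at -0.21. Among 6 tested GDNF family genes 1 passed, ARTN, and its receptor genes RET (0.09) and GFRA3 (0.05) were at intensities of 42.4 to 52.2.

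The effect differed between the estrogen forms for a few genes, which is a description because each form has 1 pair. With tamoxifen on estradiol-BSA, 6 genes were at least 2-fold lower (0.0468%) and 0 higher, and on estradiol 3 were lower (0.0234%) and 1 higher (0.00779%), with WASF3 and P3H1 in both. KIT, the receptor for stem cell factor, was at 145 and then 146 in the estradiol pair, at 158 and then 34.5 in the estradiol-BSA pair, and at 139 with vehicle. KIF26B, an atypical kinesin gene, was at 227 and then 224, at 200 and then 58.7, and at 203 with vehicle. LRRN1, a neuronal leucine-rich repeat gene, was at 96.7 and then 78.5, and at 121 and then 30.8, with 60.2 for vehicle. All of these rest on the array of estradiol-BSA with tamoxifen, the one with the highest 3′ to 5′ ratios, and so do lower values of SRRM2 (1047 to 567, against 992 to 820 in the other pair) and TPM4 (633 to 337, against 542 to 469). In that pair the other probe sets above the filter, of SRRM2 (0.04 and -0.16), TPM4 (-0.10, -0.42 and -0.04) and KIF26B (-0.01 and 0.02), were closer to 0. The part of RNA integrity in these values was not tested. FGF9, a fibroblast growth factor gene, was at 116 and then 254 in the estradiol pair and at 102 and then 122 in the estradiol-BSA pair, with 147 for vehicle, while its other probe set was at 0.04 and -0.03. BBOX1-AS1, an antisense transcript, was at 91.2 with estradiol and at 29.5 to 35.9 on the other 4 HTB-182 arrays.

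Whether tamoxifen acted otherwise in A549 was tested over the 8 estrogen arrays of both lines. By limma 0 of 12969 genes passed for a tamoxifen effect that differed between the lines (smallest adjusted p 0.498). An unadjusted p under 0.05 was found for 325 genes (2.51%). The spread of this test is how far the pairs of a line disagree, so the lack of passing genes does not show that the effects were alike. WASF3 had the smallest p, with HTB-182 minus A549 at log2 -1.50 ± 0.18 (SE), but its A549 intensities were 16.9 to 21.6, near the filter, so a fall could hardly be read there. ARTN was also dim in A549, at 21.7 to 24.6, with a difference of 0.71 ± 0.16 (adjusted p = 0.999). P3H1 was at 75.3 and then 75.1, and at 70.1 and then 62.6 in A549 (difference -1.07 ± 0.16, adjusted p = 0.999). CCNG2 was well above the filter in A549, at 285 and then 353, and at 369 and then 337, so the A549 pairs went opposite ways (difference 0.72 ± 0.18, adjusted p = 0.999). The count without 1 array ran from 4 to 1096, with the highest counts, 1096 and 1068, without either A549 estradiol-BSA array.

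Probe sets of the same gene often disagreed. Over all 27307 probe sets above the filter 7 passed by limma (0.0256%), and in both pairs 2 were 1.5-fold higher (0.00732%) and 15 lower (0.0549%), an alternative chosen after seeing the data, and 3 of them, on SOX2, RAD21 and SEMA6A, belong to genes whose brightest probe set did not pass. A SOX2 probe set was at 567 and then 311, and at 625 and then 341, with 970 for vehicle (log2 -0.84), while the brightest SOX2 probe set was at 3843 and then 4377, and at 3989 and then 4221 (0.13). A probe set of the cohesin gene RAD21 was at 1081 and then 699, and at 1011 and then 543, against 4536 and then 4675, and 4679 and then 4613, on the brightest. Among 10166 dimmer probe sets of a gene, 0 reached 1.5-fold higher and 10 reached 1.5-fold lower in both pairs, and 3.69% were higher and 6.4% lower at an unadjusted p under 0.05. Among the brightest probe sets these shares were 5.4% and 2.66%, so the direction turned with the choice of probe set. The ACTB ratio was higher with tamoxifen in both pairs, and its part in these lower values was not tested.

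**Figure D5:**
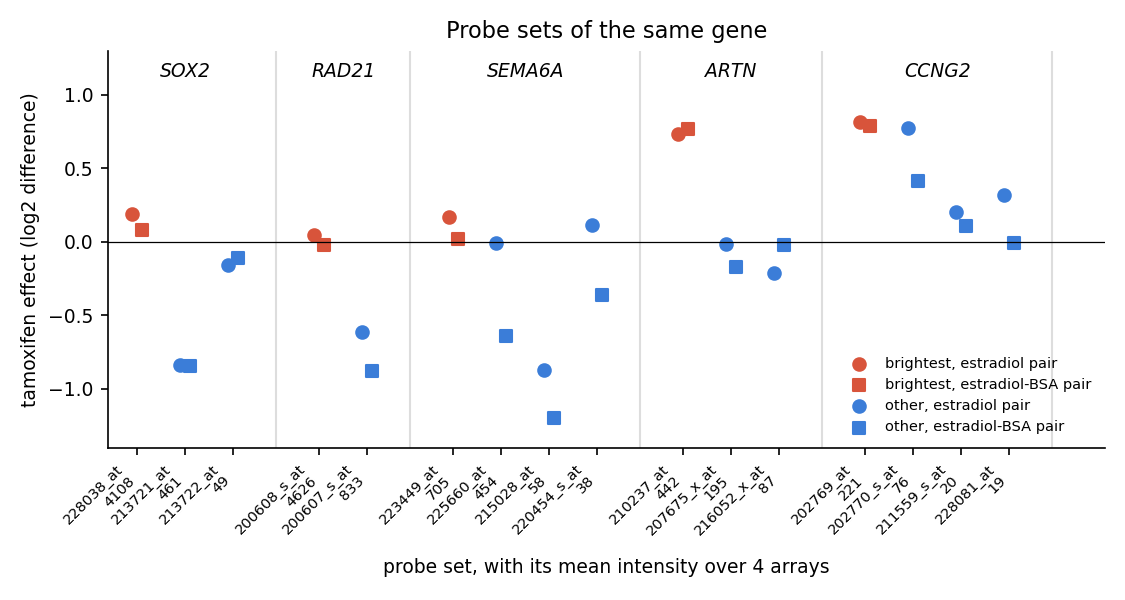
Tamoxifen effect (log2 difference, vertical axis) of each probe set above the filter for SOX2, RAD21, SEMA6A, ARTN and CCNG2, with its mean intensity under its name; red is the brightest probe set of a gene, blue the others, circles the estradiol pair and squares the estradiol-BSA pair. SOX2 has probe sets at 0.13 and -0.84, and ARTN has 1 probe set at 0.75 and the others near 0.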

How the data were processed

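RNA of 10 arrays was labelled by the array maker's protocol. The deposited values are MAS5 intensities on a linear scale, per the submitters' processing notes, with version and scaling target not given in the sources used here. From them log2(intensity + 16) was computed. Of 54675 probe sets, 62 controls were left out, and of the rest 41091 name 1 gene, 1801 several and 11721 none here. Each gene took its brightest single-gene probe set over the 4 arrays. Genes at or above the median probe set (intensity 18.3) were tested with limma 3.58.1 in R 4.3.3, with tamoxifen and the estrogen form as block, an intensity trend and Benjamini-Hochberg adjustment. The fit was checked on simulated data. RefSeq symbols matched 12816 of 12829 tested genes.

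The members and the 31 gene lists were chosen with earlier results of these data known, and no list was tested as a set. Named were genes that passed, genes 1.5-fold apart in both pairs, up to 3 list members of largest change, the receptor genes and the WAVE and collagen hydroxylase families. Others are said to be named after their values were seen. The number of arrays limits the precision. Alternatives changed the pseudocount, filter, scaling, probe set rule, block, samples and variance model.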

Additional observations from a re-analysis of the deposited data

Results flagged for a closer look

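Probe sets that the comparison of genes did not use held 3 signals that passed by limma over all probe sets. Each is a dimmer probe set of a gene whose brightest probe set did not pass. For SOX2, the squamous lineage factor gene, the dimmer probe set had a tamoxifen effect of -0.84 on the log2 scale, with -0.84 in each pair, and the brightest had 0.13. For the cohesin gene RAD21 the values were -0.75 (-0.62 and -0.88 in the pairs) and 0.01. For SEMA6A, a semaphorin gene, they were -1.04 (99.9 to 47.4 and 64.4 to 18.9, with 130 for vehicle) and 0.09, and another SEMA6A probe set went from 503 to 500 in the estradiol pair and from 500 to 315 in the estradiol-BSA pair. The ACTB 3′ to 5′ ratio was higher with tamoxifen in both pairs (4.61 against 3.74 and 6.13 against 4.38), and its part in these values was not tested.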

How the results depend on the processing

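The count of genes that passed was 4 with a pseudocount of 1, with either other scaling and with no replicate block, that is without the pairing by estrogen form, where all 4 genes were kept. It was 6 with no filter, 5 with robust variances, 7 with a pseudocount of 64, 57 at a mean intensity of 100 or above, 2 with the mean of probe sets and 0 without the intensity trend. With the vehicle array added and the form dropped from the model it was 4, of which ARTN and CCNG2 were in common. It was 7 over all probe sets, an alternative added after seeing the data. Leaving out 1 array gave 22 to 105 genes, as the form could not be fitted and the lone array was assumed to vary like the others. The line difference had 0 genes in the other alternatives, 1 of them (mean intensity of 100 or above) added after seeing the data, and 4 to 1096 without 1 array. Of the 31 lists, 20 had a median above that of all genes, and 19 to 22 in the alternatives.

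Some named genes changed direction. With the mean of probe sets CRTC1 went to 0.0030, ELOVL6 to -0.0042 and SOX2 to -0.28. Over the fits that each left out 1 array, ID1 ran from -0.92 to 0.41, GPER1 from -0.15 to 0.30, INSM1 from -0.10 to 0.31, TFF3 from -0.10 to 0.38, ZBTB16 from -0.056 to 0.37, FADS2 from -0.21 to 0.022 and DUSP6 from -0.019 to 0.46. With 1 array left out the form was not in the model, so a difference between the estrogen forms enters those values. Other causes were not tested. Signal over background limits what can be said of ESR1, ESR2 and GPER1 and of WASF3 and ARTN in A549.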
